A study of Homo sapiens with 26 samples.

Results

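The change of ribosome footprints per mRNA was examined between Huh7 cells treated with 1.5 µM PF-06446846 and Huh7 cells treated with vehicle (0.5% DMSO), both for 60 min. All 8 libraries of the second profiling study were used, of the 26 libraries in the series. They comprised 2 ribo-seq and 2 mRNA-seq libraries for each treatment, which the labels number as replicates 4 and 5. Both kinds of library were made from the same sample, so libraries that share a number and a treatment are taken here as 1 culture, which gives 4 cultures. Huh7 is a human liver cancer line, and vehicle cultures received fresh medium in the same way as treated ones.

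Translational efficiency (TE) is the number of ribosome footprints on a transcript relative to the number of fragments of its mRNA. Initiation loads ribosomes onto the mRNA and elongation carries them to the stop codon, so fewer initiations lower the footprints along the whole coding sequence (CDS). A block early in elongation has another signature, in which footprints collect before the block and thin out after it. PF-06446846 is a small molecule that the study examined as an inhibitor of translation of selected proteins, and the comparison of TE asks which transcripts lost or gained footprints beyond any change in their mRNA.

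Footprints and mRNA fragments were deposited as raw counts per codon of 12325 transcripts, and were summed over each CDS. The ribo-seq libraries held between 8888459 and 13736874 CDS reads, and the mRNA-seq libraries between 15227654 and 22036358. Counts are given as CPM (TMM-normalized, per CDS reads), and TE as the ratio of footprint CPM to mRNA CPM in the same culture. Because each library is scaled to its own total, a change shared by all transcripts could not have been seen. The 2 mRNA-seq vehicle libraries differed more from each other (SD of 0.292 in log2 CPM over 9230 transcripts) than the replicates of the other 3 groups did (0.195 to 0.212). Hepatocyte markers summed to between 8590 and 10200 CPM in the mRNA-seq libraries (8 of 9 markers analysed), against 3.63 to 6.19 CPM for the 1 fibroblast marker analysed (DCN), 12.1 to 14.7 CPM for the 1 endothelial marker (PECAM1) and 45.1 to 56.6 CPM for the 1 leukocyte marker (CD68).

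With all 8 libraries, TE fell in a small number of transcripts and rose in none that passed the test. In a single model of the 8 libraries, with TE as the interaction of assay and treatment, 4 of 11799 tested transcripts passed a false discovery rate (FDR) of 0.1 in edgeR's quasi-likelihood test (0.0339%), and all 4 were lower with the compound. They encode PCBP1, BCAP31, MDK and SORCS2. The count depended on single libraries: without mRNA-seq vehicle replicate 4 it was 128, of which 107 were lower and 21 higher, and without any 1 of the 4 ribo-seq or the 2 mRNA-seq compound libraries it was 1. With the culture as a block, which uses the shared origin of the paired libraries, 13 transcripts passed (0.11%), again all lower, and DESeq2 without a block called 11 (0.0932%), all lower. The 12 genes described below were each called by at least 1 of these 3 tests. At an unadjusted p under 0.05 the model without a block had 205 transcripts lower and 152 higher. The median log2 TE change over all tested transcripts was −0.0054, with 25% of transcripts below −0.145 and 25% above 0.135.

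PCBP1 and PCBP2 encode closely related RNA-binding proteins, whose KH domains recognize runs of cytosine in single-stranded RNA. The study notes that most reads of this pair map ambiguously between them, and reads with up to 5 equally good sites were kept, so the counts of PCBP1 and PCBP2 may share reads and their values are uncertain as separate genes. Footprints on PCBP1 were at 399 and 400 CPM in the cultures with the compound and at 818 and 794 CPM in those with vehicle (replicates 4 and 5, in that order here and below). Its mRNA was at 551 and 549 CPM with the compound and at 494 and 511 CPM with vehicle. The TE of PCBP1 was therefore 0.724 and 0.728 with the compound and 1.66 and 1.55 with vehicle, a log2 change of −1.14 (SE 0.095, adjusted p = 0.00128 from edgeR). The treatments did not overlap, and the gap between them was larger than that within either pair. PCBP1 was the only gene that passed without each of the 8 libraries in turn, with log2 changes between −1.18 and −1.12. PCBP2 had a smaller loss, with a TE of 0.577 and 0.560 against 0.797 and 0.848. Its log2 change of −0.53 (SE 0.096) had an adjusted p of 0.237 without the block and of 0.0637 with it. Of the relatives that were tested, PCBP4 had a log2 change of 0.06 (SE 0.127) and HNRNPK, which carries the same type of domain, one of −0.04 (SE 0.093), and neither passed.

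BCAP31, an ER membrane protein involved in the export and quality control of other membrane proteins, had 144 and 144 footprint CPM with the compound against 254 and 249 with vehicle. Its mRNA was at 211 and 224 CPM against 215 and 210, so TE fell from 1.18 and 1.19 to 0.686 and 0.645. The log2 TE change was −0.83 (SE 0.101, adjusted p = 0.0294 from edgeR). MDK encodes midkine, a secreted growth factor that binds heparin. Footprints on MDK were at 164 and 155 CPM with the compound and at 279 and 257 CPM with vehicle, while its mRNA stayed between 280 and 292 CPM in all 4 cultures. TE was 0.559 and 0.555 against 0.974 and 0.896, and the log2 change was −0.75 (SE 0.106, adjusted p = 0.0825 from edgeR). For both genes the mRNA of the treatments overlapped while the footprints did not. SORCS2, a receptor of the sortilin family, had the largest change of the 12 on the fewest reads, with 66 and 75 footprints with the compound and 228 and 118 with vehicle. Its TE was 0.191 and 0.241 against 0.694 and 0.629, a log2 change of −1.65 (SE 0.242, adjusted p = 0.0864 from edgeR). The other sortilin receptor tested, SORT1, had a log2 change of −0.13 (SE 0.12).

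**Figure D1:**
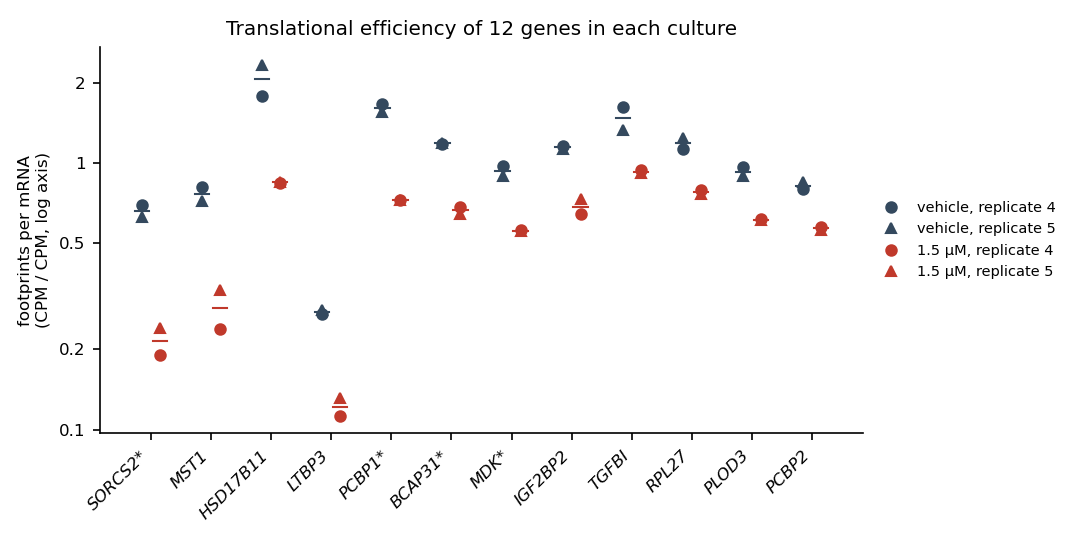
Footprints per mRNA (ratio of CPM, log axis) of the 12 genes in each of the 4 cultures, with vehicle in grey-blue and 1.5 µM PF-06446846 in red, replicate 4 as circles, replicate 5 as triangles and the mean of each pair as a bar. Genes are ordered by log2 TE change, from SORCS2 (−1.65) to PCBP2 (−0.53), and a star marks the 4 that passed without a block. In each gene both compound values lie below both vehicle values, but the genes were called for a lower TE. How often this occurs was not counted over all transcripts.

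Another 7 genes besides PCBP2 passed with the culture block or in DESeq2 but not in the fit without a block. MST1, a plasma protein made by hepatocytes and the ligand of the RON receptor, had a TE of 0.24 and 0.33 with the compound and 0.815 and 0.722 with vehicle. Its log2 change was −1.38 (SE 0.277, adjusted p = 0.436 without the block and 0.00775 with it). The TE of HSD17B11, a lipid-droplet enzyme of the short-chain dehydrogenase family, was 0.842 and 0.849 against 1.78 and 2.34 (log2 change −1.27, SE 0.201, adjusted p = 0.134 and 0.00427). LTBP3, which holds latent TGF-β in the extracellular matrix, had the lowest TE of the 12 genes, at 0.113 and 0.131 with the compound against 0.272 and 0.282 with vehicle (−1.17, SE 0.199, adjusted p = 0.159 and 0.00427). For these 3 genes TE fell by more than for BCAP31 or MDK, while the replicates of at least 1 treatment lay further apart in ratio.

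The remaining 4 had changes of −0.60 to −0.74. PLOD3 modifies lysines of collagen in the ER, and its TE was 0.615 and 0.610 against 0.963 and 0.893 (log2 change −0.60, SE 0.117, adjusted p = 0.378 without the block and 0.0372 with it). TGFBI, a matrix protein induced by TGF-β, had a TE of 0.944 and 0.914 against 1.62 and 1.33 (−0.67, SE 0.172, adjusted p = 1 and 0.0637), and DESeq2 did not call it (adjusted p = 0.465). IGF2BP2 binds mRNAs in the cytoplasm, and RPL27 is a protein of the large ribosomal subunit. IGF2BP2 was at a TE of 0.642 and 0.731 with the compound against 1.16 and 1.13 with vehicle (−0.74, SE 0.126, adjusted p = 0.159 and 0.0602). RPL27 was at 0.790 and 0.765 against 1.13 and 1.24 (−0.61, SE 0.103, adjusted p = 0.159 and 0.0239). RPL27 was the most abundant of the 12 in footprints, with 814 and 849 CPM against 1250 and 1290.

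For these genes the footprint part of the TE change was larger than the mRNA part. In the same model, 9 of 11799 transcripts passed the FDR for footprints alone (0.0763%), all lower: PCBP1, BCAP31, MDK, RPL27, SORCS2, PCBP2, HSD17B11, LTBP3 and PLOD3. For mRNA alone 0 of 11799 passed in edgeR (0%) and 0 in DESeq2, with 439 at an unadjusted p under 0.05 in edgeR, of which 288 were higher. Without mRNA-seq vehicle replicate 4, 450 transcripts passed for mRNA, 110 of them lower. In the fit of all 8 libraries, among the 12 genes the log2 mRNA change lay between −0.01 (RPL27) and 0.26 (IGF2BP2). The IGF2BP2 mRNA was at 83.2 and 78.9 CPM with the compound and 68.9 and 66.7 with vehicle, so its footprint change of −0.48 was smaller than its TE change.

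**Figure D2:**
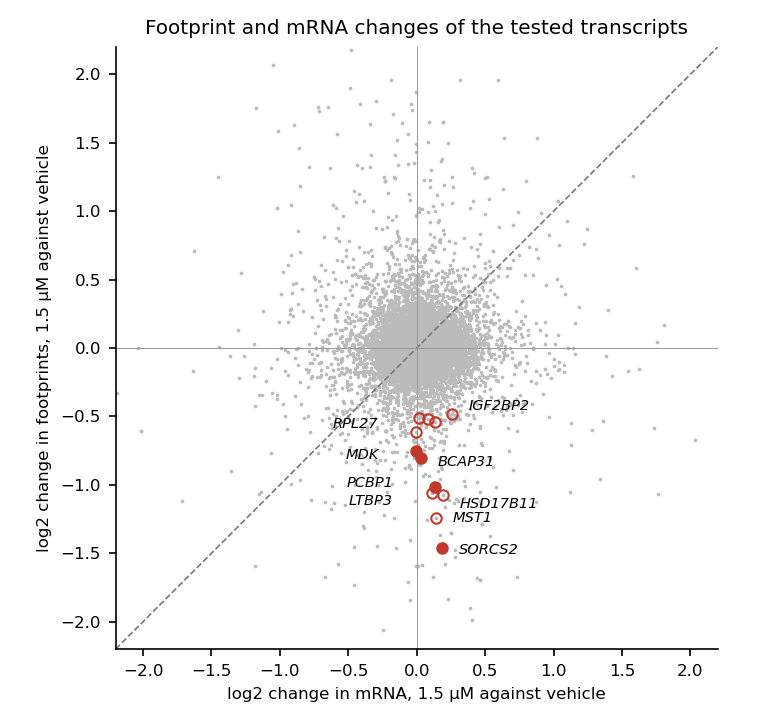
Log2 change in footprints (vertical) against log2 change in mRNA (horizontal) between 1.5 µM PF-06446846 and vehicle, for the 11719 of 11799 tested transcripts within 2.2 of 0 on both axes. The 12 called genes are red (filled where they passed without a block) and lie below the diagonal of equal change, with footprint changes from −1.46 to −0.48 and mRNA changes from −0.01 to 0.26.

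Footprints on these transcripts lay nearer to the start codon with the compound. For each of the 12 genes the codon with the largest rise in footprints, in RPM (reads scaled to the CDS reads of a library) pooled over the 2 replicates, lay in the first 50 codons. How often the largest rise lies there was not counted over all transcripts. On PCBP1 the codon of this rise was codon 20, with 10.7 and 11 RPM in the compound libraries against 2.69 and 2.14 RPM in the vehicle libraries. On PCBP2 it was also codon 20, with 33.0 and 41.3 RPM against 3.20 and 2.59. On HSD17B11 the rise was concentrated on codon 16, which held 18.6% of all its CDS footprints with the compound and 0.33% with vehicle. RPL27 had the largest rise of the 12, from 4.95 and 5.40 to 91.0 and 71.6 RPM at codon 14. At these codons both compound libraries exceeded both vehicle libraries in 12 of 12 genes. This excess is a description only, because the codons were chosen for their rise and it was not counted over all transcripts. For SORCS2, LTBP3, MST1 and IGF2BP2 it rested on 3 to 11 reads per compound library.

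The sequences around the codon of the largest rise are shown for the 6 of the 12 genes with the most compound footprints on it, the same 6 whose profiles are drawn, as 27 bases of the CDS from 5′ to 3′ with that codon in capitals. They were read from the GENCODE transcripts of GRCh38, whose CDS lengths equal those of the files for these genes. Each lies in a coding exon, at chr2:70087801-70087803 (plus strand, exon 1) for PCBP1, chr12:53454858-53454860 (plus strand, exon 2) for PCBP2, chrX:153723173-153723175 (minus strand, exon 2) for BCAP31, chr11:46382103-46382105 (plus strand, exon 2) for MDK, chr4:87391023-87391025 (minus strand, exon 1) for HSD17B11 and chr17:42998790-42998792 (plus strand, exon 2) for RPL27.
PCBP1: attcggcttcttATGcacggaaaggaa
PCBP2: atccggctacttATGcatggaaaggaa
BCAP31: ttgcttctctgcATTcccttcatttct
MDK: ctcgccctgctgGCGctcacctccgcg
HSD17B11: ccgttactgatcGTCtgctccctagag
RPL27: gtggtgcttgtcCTGgctggacgctac
The PCBP1 and PCBP2 windows differ at 3 of 27 bases, and the rise fell on the same codon of both. Of all 28-base stretches of the PCBP1 CDS, 0.575% also occur in another transcript of the set, all of them in PCBP2, and none of the 25 such stretches around codon 20 do. This search covered exact matches only.

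**Figure D3:**
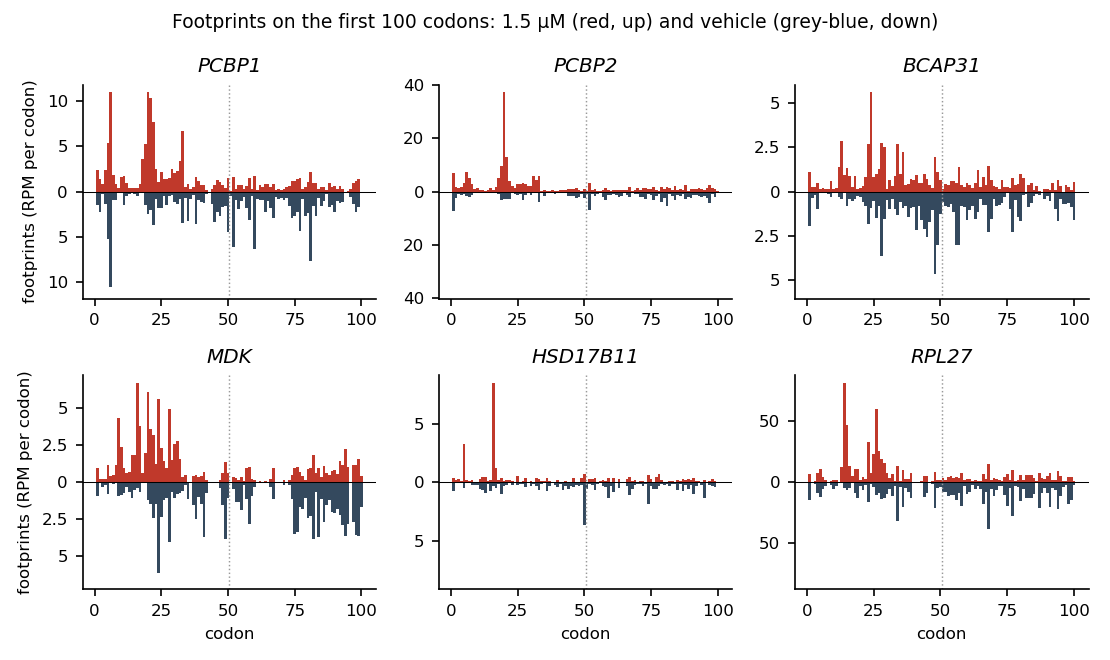
Footprints per codon (RPM, 2 replicates pooled) on the first 100 codons of 6 genes, with 1.5 µM PF-06446846 drawn upwards in red and vehicle downwards in grey-blue, each panel on its own linear scale and with a dotted line after codon 50. The red bars are tallest before codon 50 in all 6, reaching 10.9 RPM at codon 20 of PCBP1 and 80.8 RPM at codon 14 of RPL27.

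The share of footprints in codons 1 to 50 was higher with the compound in both replicate pairs for 12 of 12 genes, against 3107 of 11488 transcripts with footprints in all 4 ribo-seq libraries. On PCBP1 it was 27.2% and 30.7% with the compound against 10.2% and 11.1% with vehicle, and on RPL27 61.9% and 61.6% against 28.6% and 30.3%. The share of mRNA-seq reads in the first 50 codons, pooled over replicates, was 12.3% with the compound and 11% with vehicle on PCBP1, and 36.5% and 39.5% on RPL27. The TE fit was therefore repeated on each part of the CDS. Over the codons after 50, 15 of 11524 transcripts passed (0.13%), all lower, and in each of the 12 genes the loss was larger than over the whole CDS. RPL27 changed most by this choice, from −0.61 to −1.54 (SE 0.126, adjusted p = 0.000332 from edgeR), and MDK went from −0.75 to −1.37 (SE 0.134, adjusted p = 0.00147 from edgeR). PCBP1 was at −1.44 (SE 0.106) and HSD17B11 at −1.82 (SE 0.219). Of the 12 genes, MST1 and TGFBI did not pass after codon 50, with adjusted p-values of 0.123 and 0.388 from edgeR.

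Beside 10 of these 12 genes, 5 others passed after codon 50, although over the whole CDS none of them did. EMC7, a subunit of the ER membrane protein complex, had a log2 TE change of −1.06 (SE 0.143) after codon 50 and of −0.37 (SE 0.13) over the CDS. CD99, a cell-surface glycoprotein, went from −0.11 (SE 0.113) over the CDS to −0.86 (SE 0.141), and PODXL2, a sialomucin of the cell surface, from −0.47 (SE 0.113) to −0.96 (SE 0.12). The lysosomal phospholipase PLA2G15 was at −1.48 (SE 0.243) and BRI3BP at −1.03 (SE 0.171) after codon 50.

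In codons 1 to 50 the direction differed. In a fit added after the values were seen, 1 of 10435 transcripts passed (0.00958%), and it was higher: PODXL2, with a log2 change of 2.49 (SE 0.329, adjusted p = 0.00526 from edgeR). Codon 20 of PODXL2 held 62 and 36 footprints with the compound against 1 and 0 with vehicle. Its CDS total thus combined a gain at the start with a loss over the rest. Of the 12 genes, 10 had a positive change in codons 1 to 50, from 0.13 for IGF2BP2 to 1.67 for TGFBI. The 2 with negative values were BCAP31 (−0.22, SE 0.22) and HSD17B11 (−0.14, SE 0.268). None of the 12 passed in that part (adjusted p = 1 for each).

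**Figure D4:**
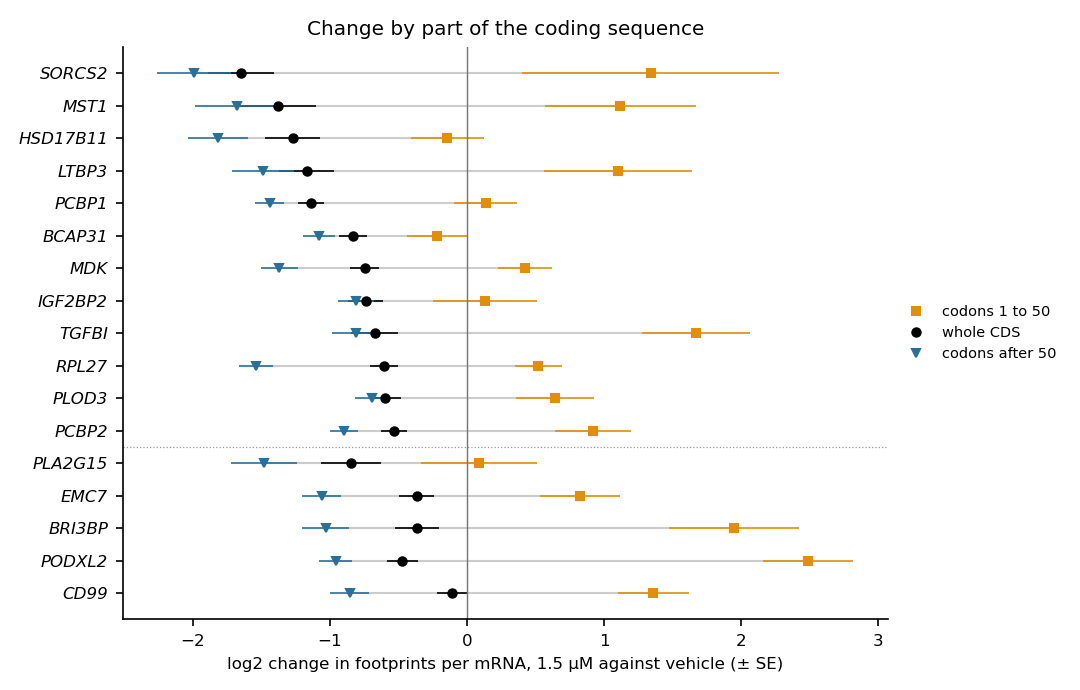
Log2 change in footprints per mRNA (± SE) in codons 1 to 50 (orange squares), over the whole CDS (black circles) and after codon 50 (blue triangles), for the 12 called genes above the dotted line and, below it, the 5 genes called after codon 50 but not over the whole CDS. In every gene the value after codon 50 is the lowest of the 3, from −0.70 in PLOD3 to −1.99 in SORCS2, and the value in codons 1 to 50 the highest, up to 2.49 in PODXL2.

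The study listed genes on which ribosomes stalled, from its first set of libraries after 60 min, and 21 of that list are reported here. It was chosen on other libraries of the same treatment, by footprints downstream of the stall. The study reports that it found the same sensitive sequences in its second set as well. Lower values of the 21 thus repeat a direction already known, in libraries not used for the choice. Their median log2 TE change was −0.53 against −0.0054 over all transcripts tested, and 20 of 21 were below 0 in both replicate pairs, against 25.8% of all transcripts. At an unadjusted p under 0.05, 15 of 21 were lower, against 1.74% of all transcripts. Past the FDR, 3 were lower without the block and 8 with it, against 0.0339% and 0.11% of all transcripts. After codon 50 the median was −1.06, against 0.00054 over all transcripts, and 12 of 21 passed, against 0.13%. In codons 1 to 50 the median was 0.55, and 16 of 21 were above 0 against 50.1% of all transcripts. The exception to the lower values over the CDS was CDH1, the epithelial cadherin, at 0.11 (SE 0.112). The study places the main stall of CDH1 far beyond codon 50, and those of USO1 and IFI30 beyond codon 50 as well. For these 3 genes, sums over the CDS or after codon 50 include footprints before the stall. They therefore do not measure the change after it. CCR1, a chemokine receptor, had the lowest value of the list, −1.60 (SE 0.342), which did not pass (adjusted p = 0.659 from edgeR), with 53 footprints in replicate 4 of the compound. IFI30 (−0.10, SE 0.114), SUMF1 (−0.19, SE 0.228), USO1 (−0.32, SE 0.187), SUMF2 (−0.43, SE 0.135) and DPCD (−0.69, SE 0.22) were among those between.

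Of the 8 other genes that the study names from its profiling, SORCS2 passed and 7 did not. The study names them for different reasons, and does not state a loss of TE for each. It reports SORCS2, FAM13B and LRP8 as lower in footprints, and EFNA3 for a difference in mRNA. For VPS25 and TM2D3 it describes stalls without fewer reads after them, for MAPRE1 no clear stall, and for COX10 stalls near the stop codon. FAM13B had the same estimate as SORCS2, −1.65, but with an SE of 0.499 and pair values of −0.86 and −2.47. LRP8, a lipoprotein receptor, was at −0.51 (SE 0.276), MAPRE1 at −0.25 (SE 0.115), TM2D3 at −0.24 (SE 0.206), VPS25 at −0.08 (SE 0.127) and COX10 at 0.18 (SE 0.239). The ephrin EFNA3 was at 0.42 with an SE of 1.16, so that no change in its TE was detectable at this depth.

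The footprints of the 12 genes were also compared in the first study, in 3 libraries of 1.5 µM and 3 of vehicle after 60 min that share no sample with the 8. In 11 of 12 genes all 3 compound libraries lay below all 3 vehicle libraries, against 3.22% of 11021 transcripts. For 8 of the 12 this is no independent result, because they are on the list of stall genes chosen from those libraries, and the same holds for SORCS2, which the study names for its lower footprints there. PLOD3, IGF2BP2 and TGFBI are on neither list of genes taken from the study. PLOD3 had 204, 247 and 283 CPM with the compound against 341, 327 and 393 with vehicle, IGF2BP2 had 50.8, 42.2 and 38.6 against 74.6, 61.4 and 58.3, and TGFBI had 113, 108 and 140 against 154, 170 and 201. The exact two-sided permutation test gave p = 0.1 for each, the smallest it can give with 3 against 3 (0.109 adjusted over the 12). RPL27 was the exception, with 812, 1190 and 1120 CPM against 1100, 1110 and 1060 (exact permutation p = 1). The codon of the largest rise was the same in both studies for 5 of the 12 genes: PCBP1, PCBP2, BCAP31, HSD17B11 and TGFBI. Codon 14 of RPL27 had 49.7 RPM with the compound and 4.43 with vehicle in the first study as well, but its largest rise there was at codon 23. Codon 29 of IGF2BP2 had no rise in the first study, with 0.0494 RPM against 0.0625, and its largest rise was at codon 22. For PLOD3 and SORCS2 the largest rise in the first study lay outside the first 50 codons, at codons 738 and 171. Codon 738 of PLOD3 is the last before its stop codon, and the study describes a large build-up of reads at stop codons. For MDK, LTBP3 and MST1 the largest rise in the first study was at codons 5, 28 and 25.

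Few members of the other gene lists passed. Ribosomal proteins of the large subunit had a median of 0.02 over 53 transcripts, and RPL27 was the only one past the FDR with the block. The next lowest was RPL36AL (−0.26, SE 0.259), and the highest were RPL26L1 (0.34, SE 0.139) and RPLP1 (0.26, SE 0.107). Small-subunit proteins had a median of 0.08 with 7 of 32 below 0, against 51.0% of all transcripts. The medians of the replicate pairs had opposite signs (0.14 and −0.02), and without mRNA-seq vehicle replicate 4 the median was 0.0235 with 13 of 32 below 0. With all 8 libraries, and leaving out those under 50 reads on average, they ran from RPS24 (−0.10, SE 0.139) to FAU (0.21, SE 0.116). Among 76 mitochondrial ribosomal proteins (median −0.0011) the lowest was MRPL45 (−0.55, SE 0.13, unadjusted p = 0.00138 from edgeR), which did not pass, and the highest MRPL50 (0.43, SE 0.162).

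The machinery of translation and of stalled ribosomes showed no member past the FDR in either fit. Genes with EIF symbols, which are initiation factors and others such as the eIF2 kinases and EIF4EBP1, had a median of −0.03 over 49 transcripts. They ran from EIF3J (−0.46, SE 0.134) to EIF2B2 (0.29, SE 0.193). Factors of ribosome rescue and quality control had a median of −0.01 over 23, from TRIP4 (−0.34, SE 0.156) and PELO (−0.27, SE 0.158) to GTPBP1 (0.25, SE 0.143) and ZNF598, the ligase that marks collided ribosomes (0.19, SE 0.147). Genes of the integrated stress response, which acts through phosphorylation of initiation factor eIF2, had a median of −0.02 over 17, from SLC7A11 (−0.37, SE 0.332) to ATF3 (0.25, SE 0.272). ER chaperones had a median of 0.02 over 22 and cytosolic aminoacyl-tRNA synthetases one of −0.04 over 19, with values between −0.26 and 0.37 in both lists.

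Genes of hepatocyte function were close to the median of all transcripts. The median was 0.02 over 34 plasma proteins, from FGG (−0.24, SE 0.2) and FGA (−0.24, SE 0.122) upwards, −0.0064 over 16 genes of apolipoproteins and lipoprotein assembly, and 0.07 over 25 genes of cholesterol synthesis. In the LDL receptor family the median was 0.03 over 11, with LRP8 lowest and VLDLR highest (0.73, SE 0.332, unadjusted p = 0.05 from edgeR). ER targeting and translocation factors had a median of 0.07 over 39, among them EMC7. None of these lists had a member past the FDR over the whole CDS, with or without the block. BCAP31 was the only one that passed in a mixed list of 22 tail-anchored, short or other membrane proteins. MDK was the only one in a list of 8 growth factors, in which GDF15 (0.22, SE 0.26) and VEGFA (0.01, SE 0.22) were at or above 0. Over all transcripts 0.0339% passed without the block and 0.11% with it.

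The lists of mitochondrially encoded genes and of histones had no member past the FDR, but most of their members had values of 1 sign. All 13 mitochondrially encoded genes, which are translated by mitochondrial ribosomes, had a negative log2 TE change in both replicate pairs, against 25.8% of all transcripts, with a median of −0.48 and values from −0.74 (MT-ND6, SE 0.332) to −0.32 (MT-CO3, SE 0.303). Summed over the 13, TE was 0.0191 and 0.0277 with the compound and 0.0254 and 0.0378 with vehicle, so that the treatments overlapped in level although both pairs had the same direction. Without ribo-seq replicate 4 of the compound, the median was −0.07 and 10 of 13 were below 0. Histone transcripts had values above 0 in 62 of 67, against 49.0% of all transcripts at or above 0, with a median of 0.19, from H1-1 (−0.33, SE 0.151) to H2AC11 (0.58, SE 0.293). In both replicate pairs 33 of the 67 were higher and 3 lower, against 2967 and 3042 of 11799 transcripts. Reads with up to 5 best sites were kept, and the sharing of reads among histone transcripts was not examined. Most histone mRNAs carry no poly-A tail, and poly-A RNA was used for mRNA-seq, so their mRNA level is underestimated. Their summed TE was 24.3 and 23.3 against 23.4 and 19.5, which overlap, and without mRNA-seq vehicle replicate 5 the median was −0.08 with 43 of 67 below 0.

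**Figure D5:**
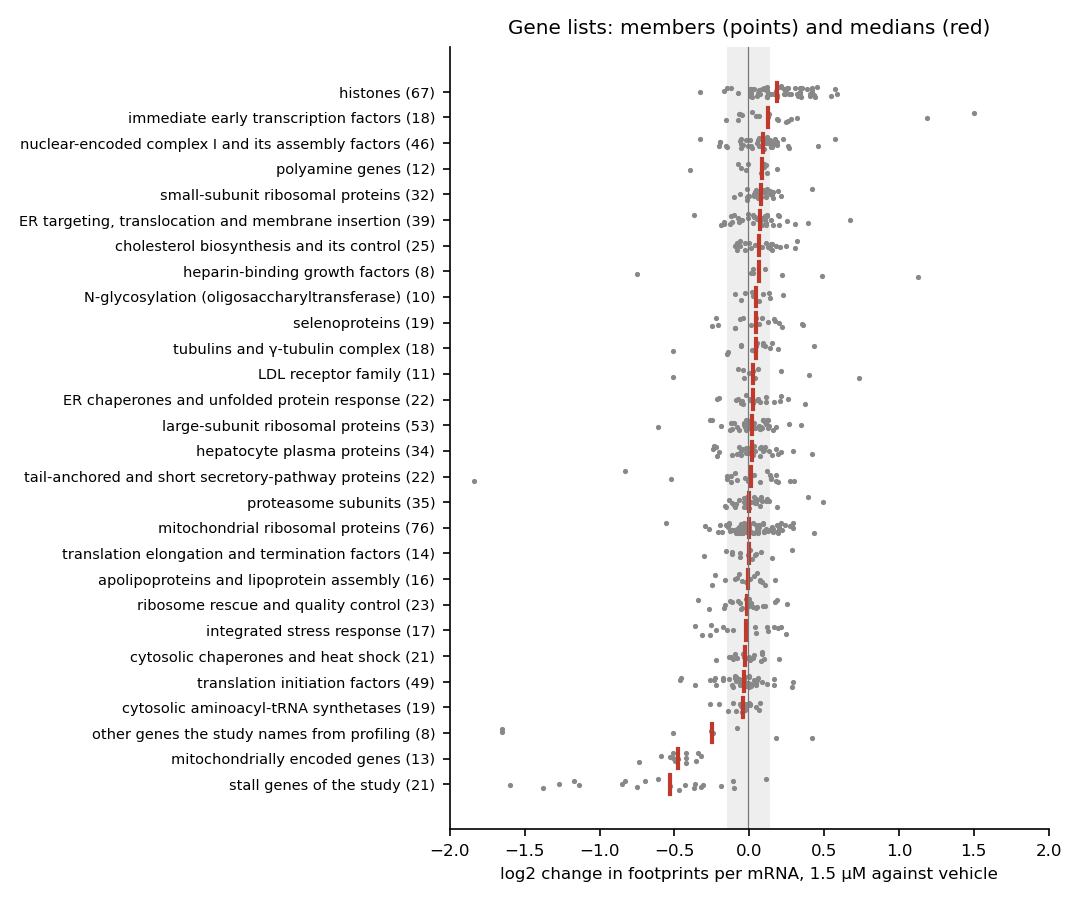
Log2 change in footprints per mRNA between 1.5 µM PF-06446846 and vehicle for the members (grey points) of the gene lists with at least 8 tested members, whose number is in brackets, with the median of each list as a red bar. The list labelled translation initiation factors also holds eIF2 kinases and other EIF genes. That of tail-anchored and short secretory-pathway proteins also holds other membrane proteins, some of them mitochondrial. The heparin-binding list also holds other growth factors. The grey line and band give the median and the interquartile range of all 11799 tested transcripts (−0.145 to 0.135); the stall genes of the study (median −0.53) and the mitochondrially encoded genes (−0.48) lie furthest below it, and histones (0.19) furthest above.

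Outside these groups, the largest estimates in either direction did not pass the test. Of the transcripts that averaged 50 or more reads in each assay and had the same direction in both replicate pairs, the lowest values after the called genes and CCR1 were those of ITGB8, BLZF1, F3 and NABP1, between −1.14 and −1.09, with SEs of 0.344 to 0.595. In these 4 the mRNA part was large (0.72 to 1.04) and the footprint part small (−0.37 to −0.08), opposite to the 12 called genes. Among the highest values were those of SLFN13 (1.19, SE 0.397), a transcript with no gene name here (1.09, SE 0.659), RBPMS2 (1.00, SE 0.325), APH1B (0.96, SE 0.462), THG1L (0.96, SE 0.364), C1orf109 (0.95, SE 0.454), PRIMPOL (0.94, SE 0.409), SLC6A6 (0.91, SE 0.434) and NBAS (0.88, SE 0.461). The adjusted p of each of these named transcripts rounded to 1 in edgeR.

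How small a TE change could be seen depended on the reads. The median SE of the log2 TE change was 0.595 for 1976 transcripts with fewer than 50 footprints on average, 0.282 from 50 to 200, 0.175 from 200 to 1000, 0.126 from 1000 to 5000 and 0.113 above 5000. TE also shifted slightly with the length of the CDS. The median log2 TE change was 0.05 for 1569 transcripts under 150 codons and −0.08 for 813 transcripts of 1200 codons or more, and it fell in every step between them. The shift lay in the mRNA part, whose median went from −0.05 to 0.09 over the same bins, while the median of the footprint part stayed between −0.0012 and 0.0079. The CDS of the 12 genes ran from 137 codons (RPL27) to 1304 (LTBP3).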

How the data were processed

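Reads from ribo-seq and mRNA-seq of Huh7 cells were processed by the authors, who removed adapters and rRNA reads and aligned the rest with Bowtie 1.1.2 to the most abundant isoform of each gene, which kallisto 0.42.5 had identified (GRCh38, per the submitters' processing notes). They kept reads with 5 or fewer best sites. The deposited files hold raw counts per codon for each library, without normalization. Counts were summed over each CDS of 12325 transcripts. GENCODE gave names for 11270 of them, 228 took theirs from the supplement, and 827 stayed unnamed.

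TE was tested with edgeR 4.0.16 in R 4.3.3 (filterByExpr, TMM, glmQLFit, glmQLFTest) as the assay-by-treatment interaction in a fit of the 8 libraries without a block. P-values were adjusted by the Benjamini-Hochberg method and called at 0.1. The footprint and mRNA changes are contrasts of the same fit. Each SE was derived from the edgeR test, as the absolute log2 change divided by the square root of the F statistic. The alternatives were DESeq2 1.42.0, its size factors within each assay, no filter or at least 10 reads in each library, an FDR of 0.05, a block for the culture or for the replicate number, other parts of the CDS, the Z-score transformation of the study, and each library left out in turn. An arm left with 1 library was assumed to vary like the others. A fit on codons 1 to 50 was added after the data were seen. An exact test of 1 gene by permutation cannot pass 0.05 in groups of 2, so TE was tested only in models across all genes. Footprints of the first study were compared by exact two-sided permutation tests. The TE model was also run on simulated counts, drawn independently for each library, as a check of the code only. That run does not show how reliable the calls are in these data, whose libraries share deviations. Figures were drawn with matplotlib 3.10.9, and other steps used Python 3.11.15, numpy 2.4.6, pandas 2.3.3 and scipy 1.17.1.

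The pairing comes from the paper, which states that both kinds of library were made from the same sample. Over 9230 transcripts, the deviations of replicates 4 and 5 from their group mean correlated by 0.328 between ribo-seq and mRNA-seq for the compound and by 0.163 for vehicle. Libraries of different treatments that share a number correlated by 0.318 (ribo-seq), 0.0944 (mRNA-seq), 0.0919 (compound ribo-seq with vehicle mRNA-seq) and 0.224 (vehicle ribo-seq with compound mRNA-seq), so a shared number also went with shared deviations across treatments. No source says that the cultures were made on separate days, so p-values reach no further than these cultures. The fit without a block takes the 8 libraries as independent, and its p-values rest on the spread between libraries of a group. The culture block removes what the 2 libraries of a culture share, and its p-values rest on what is left. In both fits the spread of a gene is also drawn towards that of other genes. Between replicates of a group, the chi-square of the counts per transcript was 4.99 to 19.9, so no 2 libraries agreed within sampling noise.

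Genes named are those past the FDR in TE without a block, with the culture block or in DESeq2, the 10 highest and 10 lowest TE changes with at least 50 reads on average in both assays and the same direction in both replicate numbers, the members of both lists the study names, and up to 2 highest and 2 lowest members of the other lists. These members and lists were chosen with earlier results of these data known. A few genes within this rule are left out of the text, although counts over all transcripts or over a list may include them. A file of the authors' scripts was not used except to follow the Z-score method.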

Additional observations from a re-analysis of the deposited data

How the results depend on the processing

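The count of transcripts with a changed TE (4) was 11 with DESeq2, 13 with the replicate block by culture and 13 with the block by replicate number, 15 over the codons after 50, 17 with the Z-score transformation of the study (16 lower), 2 at an FDR of 0.05, and between 1 and 128 with each library left out. The 128, of which 107 were lower, came without mRNA-seq vehicle replicate 4, 4 came without mRNA-seq vehicle replicate 5, 3 of them among the original 4, and PCBP1 alone passed without any other single library. The count for footprints (9) was 17 with DESeq2, 14 with the replicate block by number, 22 after codon 50 and 3 to 15 with libraries left out (15 without either mRNA-seq vehicle library, 3 without ribo-seq replicate 4 of the compound and 4 without either ribo-seq vehicle library), and that for mRNA (0) was 0 to 450, the 450 again without mRNA-seq vehicle replicate 4. The cause was not tested. Of the 192 values of the 12 called genes under the alternatives, 192 were negative, 85 passed the FDR, 40 passed where the value without a block had not and 19 did not where it had. The 12 genes were chosen as those that passed in at least 1 of 3 fits. Of these fits, the culture block and DESeq2 are also among the alternatives, so part of these counts was fixed by that choice. The block by replicate number called the same number of transcripts as that by culture, and it left the mRNA count at 0. The Z-score beyond 3 also singled out BLZF1, NKRF and ZNF354B (lower) and H3C7 (higher), named after their values were seen, which none of edgeR with or without the culture block and DESeq2 called with all 8 libraries. Of 2155 values of the 135 other named genes, 286 moved by more than the SD of the 2 replicate pairs. With 2 cultures per treatment, changes of transcripts with fewer than 50 footprints rest on few reads. Intervals were not computed for single codons, and reads without molecular identifiers are not independent molecules.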

Other observations

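The other lists examined had no transcript past the FDR in TE over the whole CDS, with or without the culture block or in DESeq2. Elongation and termination factors, which act while the ribosome moves along the mRNA and leaves it, had a median log2 TE change of −0.0034 over 14 transcripts, from EEF2K, the kinase of elongation factor eEF2 (−0.30, SE 0.161), to EIF5A2 (0.29, SE 0.26). Polyamine genes, of which several are controlled at translation by polyamines themselves, had a median of 0.08 over 12, with AZIN1 (−0.40, SE 0.196) and OAZ1 (0.19, SE 0.095) at the ends. Selenoproteins, which need recoding of a stop codon, had a median of 0.05 over 19, with GPX1 at 0.36 (SE 0.119, unadjusted p = 0.0127 from edgeR). The median was 0.13 over 18 immediate early transcription factors, but 0.0017 with 9 of 18 below 0 without mRNA-seq vehicle replicate 5 and up to 0.213 without another library. It was 0.0017 over 35 proteasome subunits, −0.03 over 21 cytosolic chaperones, 0.05 over 10 genes of N-glycosylation and 0.04 over 18 tubulins and genes of the γ-tubulin complex. Nuclear-encoded complex I genes and their assembly factors had a median of 0.09, with 13 of 46 below 0, and their median lay between 0.0235 (without ribo-seq replicate 5 of the compound) and 0.125 (log2) over 16 alternatives.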
